A study of Homo sapiens with 6 samples.

Results

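The ATP-binding cassette (ABC) transporters were examined as the protein-coding genes whose symbol begins with ABC, a subfamily letter from A to G and a number. The rule found 46 genes among 60664 human gene identifiers, of which 19890 are protein-coding in GENCODE version 29. There were 12 members in subfamily A, 9 in B, 11 in C, 4 in D, 1 in E, 4 in F and 5 in G. The count includes ABCF2-H2BK1, a readthrough gene listed at 0 RPKM in all 6 libraries. TAP1, TAP2 and CFTR belong to the superfamily under other symbols and were kept as a separate list.

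RNA-seq had been done on 3 libraries labelled shPDGFC and 3 labelled shNC. The shPDGFC cells carry a stable short hairpin RNA against PDGFC, the gene of a secreted platelet-derived growth factor, and the shNC cells carry the hairpin with that label. Both groups come from cells titled LNCaPE, with the cell line given as LNCaP, a human prostate cancer line, which the design text describes as an enzalutamide-resistant derivative (LNCaP-EnzaR); enzalutamide is an antiandrogen drug. Both groups were grown in the same DMEM medium with serum, and no drug treatment or time is given for either. The labels speak of pooled RNA and name neither clones nor separate cultures, so the p-values rest on library-to-library spread that could be technical.

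PDGFC fell in the shPDGFC libraries. It averaged 2.65 ± 0.31 RPKM (reads scaled by gene length and library size) in shPDGFC and 8.35 ± 0.32 RPKM in shNC (SD, n = 3 each; limma, log2 change -1.36 ± 0.066 SE, adjusted p = 0.00016). Libraries held between 17360455 and 20905911 reads in shPDGFC and between 18258988 and 23930217 in shNC. Mitochondrial genes took between 4.18% and 4.66% of reads in shPDGFC and between 3.73% and 4.06% in shNC. Of 12 prostate luminal and LNCaP markers 9 reached 1 RPKM in at least 3 libraries, but KLK3 (prostate-specific antigen) and KLK2 did not exceed 0.03 and 0.019 RPKM in any library, and TMPRSS2 averaged 0.449 and 0.628 RPKM in shPDGFC and shNC. Of 9 markers of leukocytes, fibroblasts, endothelium and smooth muscle 2 reached that level, COL1A1 (5.14 and 6.01 RPKM in shPDGFC and shNC) and ACTA2 (7.10 and 9.16 RPKM). These 9 markers summed to between 11.8 and 13.2 RPKM in shPDGFC and between 15.33 and 15.96 RPKM in shNC. The 12 luminal markers summed to between 188 and 201 RPKM in shPDGFC and between 173 and 176 RPKM in shNC. Such sums follow the most abundant markers. Of the 9 luminal markers tested with limma, 1 was higher, 1 was lower and 7 did not pass, where 14.2% of all tested genes were higher and 15.6% lower. Their log2 changes were positive for 4 and negative for 5, with a median of -0.013. The part of these differences in the results on ABC genes was not tested, and in these bulk libraries fewer cells of a type and less RNA per cell cannot be told apart.

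Most ABC proteins are membrane pumps that use ATP to move lipids, sterols, drugs, peptides or metal-containing compounds across a membrane. Subfamilies B, C and G include the classical drug exporters, subfamily A handles mainly lipids, and subfamily D serves peroxisomes and lysosomes. The E and F proteins have the ATP-binding domains but no membrane domain, and act on ribosomes. Drug export by ABCB1, ABCC1 and ABCG2 is a known route of chemotherapy resistance in many tumours.

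Promoter sequences are shown for 4 members that passed the test described below, namely those with the smallest adjusted p. Each runs from 250 bases before to 50 bases after the RefSeq gene start (GRCh38.p14, all 4 on the minus strand), 5′ to 3′. Capitals mark every match, on either strand, to 7 short motifs: the GC box GGGCGG, the CCAAT box CCAAT, the ETS core CCGGAA, the E-box CACGTG, the cyclic AMP response element TGACGTCA, the antioxidant response element core TGACNNNGC and the TATA box TATAAA. The cyclic AMP and antioxidant motifs share their opening letters TGAC.
ABCC5 (chr3:184017835-184018134): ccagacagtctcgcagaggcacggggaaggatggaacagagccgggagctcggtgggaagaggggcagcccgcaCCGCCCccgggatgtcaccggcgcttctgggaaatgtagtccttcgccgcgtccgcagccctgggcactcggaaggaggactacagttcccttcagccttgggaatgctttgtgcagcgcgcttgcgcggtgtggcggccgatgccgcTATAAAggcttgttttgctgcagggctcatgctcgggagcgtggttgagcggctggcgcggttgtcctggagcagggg
ABCA5 (chr17:69327084-69327383): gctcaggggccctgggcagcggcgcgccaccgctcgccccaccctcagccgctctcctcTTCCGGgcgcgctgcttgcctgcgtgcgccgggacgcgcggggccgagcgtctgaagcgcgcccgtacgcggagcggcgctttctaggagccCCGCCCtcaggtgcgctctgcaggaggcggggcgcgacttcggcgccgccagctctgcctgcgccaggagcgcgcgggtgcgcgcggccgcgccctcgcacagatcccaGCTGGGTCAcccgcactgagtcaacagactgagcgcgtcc
ABCD4 (chr14:74302885-74303184): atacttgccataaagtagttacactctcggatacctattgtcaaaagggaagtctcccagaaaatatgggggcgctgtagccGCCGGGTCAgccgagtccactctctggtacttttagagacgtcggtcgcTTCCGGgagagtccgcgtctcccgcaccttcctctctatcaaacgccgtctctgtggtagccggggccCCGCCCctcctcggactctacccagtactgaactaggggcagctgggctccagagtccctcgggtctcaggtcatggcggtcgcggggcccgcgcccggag
ABCG2 (chr4:88231577-88231876): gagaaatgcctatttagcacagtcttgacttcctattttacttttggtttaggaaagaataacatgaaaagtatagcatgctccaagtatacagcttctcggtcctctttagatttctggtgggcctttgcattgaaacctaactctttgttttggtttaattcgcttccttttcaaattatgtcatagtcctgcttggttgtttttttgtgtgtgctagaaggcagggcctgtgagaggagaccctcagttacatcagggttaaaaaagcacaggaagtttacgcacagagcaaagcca

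The ABCC5 promoter window held 1 GC box and, nearer the start, 1 TATA box match, and its GC content was 65.7%. The ABCA5 window (76.3% GC) and the ABCD4 window (61.0% GC) each held 1 GC box, 1 ETS core and 1 antioxidant core. The ABCG2 window, at 40.3% GC, held none of the 7 motifs. The whole of this window lies upstream of the 5′ end of ABCG2 as annotated in GENCODE (position 88231322). The sequence next to that end was therefore not searched. Of the 46 members 36 had a promoter in the RefSeq table, 7 of them among the 8 that passed the test. The GC box occurred in 19 of the 36 (52.8%), against 44.6% of all 27305 promoters, and the ETS core in 7 (19.4%), against 17.6% of all. The CCAAT box occurred in 7 of the 36 (19.4%), against 35.7% of all promoters. A match describes letters in these windows and says nothing of binding.

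Transcripts of 29 members reached 1 RPKM in at least 3 libraries, the level required for the test, and each of the 29 did so in all 6 libraries, so none entered the test through 1 group alone. The other 17 stayed at or below 0.546 RPKM in every library. ABCE1, a ribosome recycling factor, was the most abundant member and held between 30.8% and 31.6% of the summed RPKM of the family. With ABCE1, 11 members averaged at least 10 RPKM, among them ABCA3, ABCB1, ABCB10, ABCC1, ABCC5, ABCD3, ABCD4, ABCF1 and ABCF3. Members of every subfamily but G lay above that level.

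**Figure D1:**
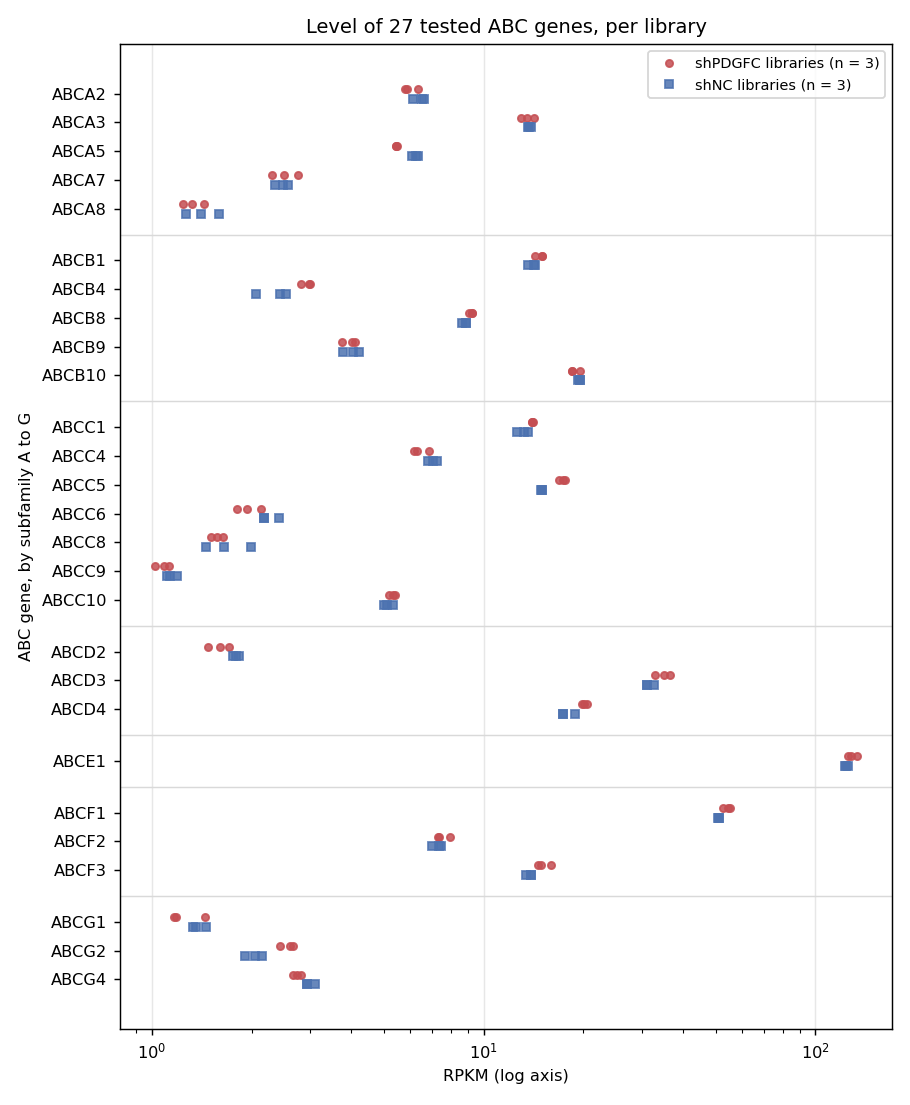
RPKM of 27 tested ABC genes in each library on a log axis, with shPDGFC libraries as circles above and shNC libraries as squares below, by subfamily from A to G. ABCE1 lies above 100 RPKM, ABCF1 near 50, and the subfamily G genes below 4, and the groups lie close together for every gene.

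Comparing shPDGFC with shNC, 7 of the 29 tested ABC genes were higher and 1 was lower. ABCC5, ABCD4, ABCD3, ABCG2, ABCB4, ABCF1 and ABCF3 rose, and ABCA5 fell. All changes were small: the ratio of group means ran from 0.866 (ABCC6, which did not pass) to 1.26 (ABCG2). The test was limma on log2(RPKM + 1) over 15337 genes with Benjamini-Hochberg adjustment and a threshold of 0.05, a scale on which changes of weakly expressed genes come out too small. Over all tested genes 14.2% were higher, 15.6% were lower and 29.8% passed in either direction, so the 27.6% of ABC genes that passed (24.1% higher, 3.45% lower) is near the background in total. The median log2 change was 0.034 over the 29 members and -0.013 over all tested genes. Libraries of the groups did not overlap for 16 of the 29 (55.2%), 12 with every shPDGFC library above and 4 with every shPDGFC library below, against 21.7%, 25.1% and, in either direction, 46.8% of all tested genes.

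**Figure D2:**
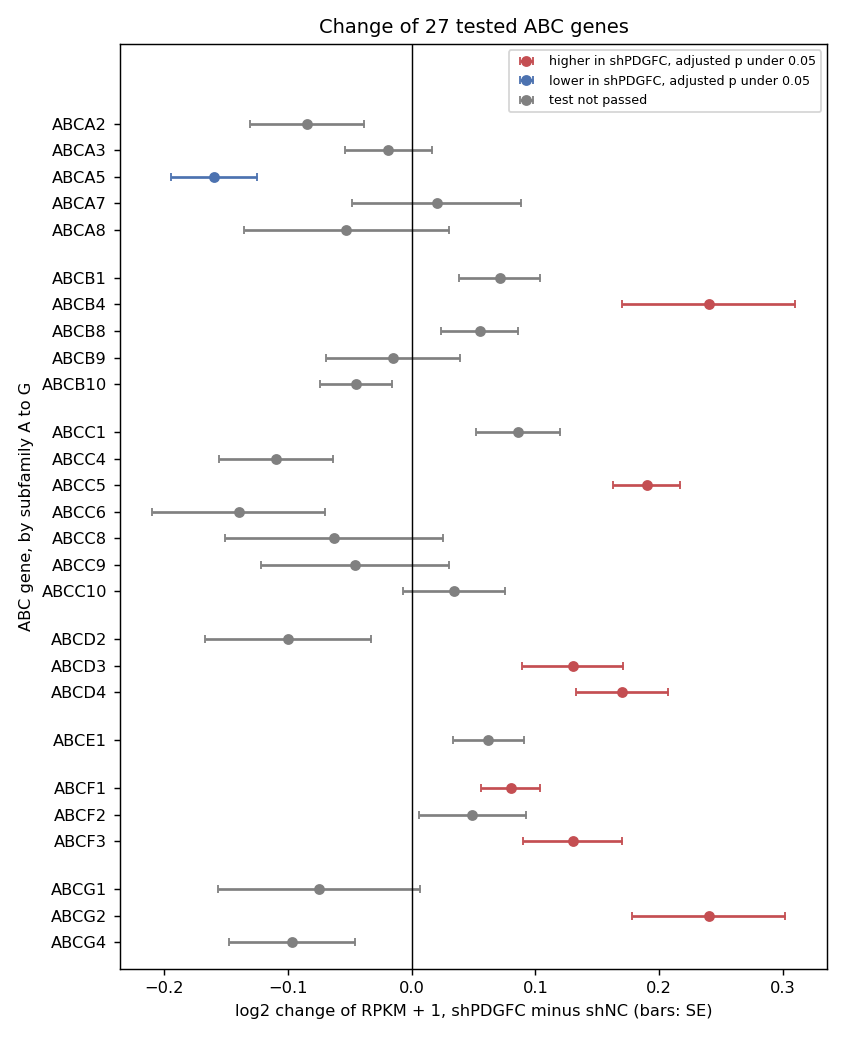
Log2 change of RPKM + 1, shPDGFC minus shNC, for 27 tested ABC genes by subfamily, with bars for the SE of the limma fit. The 7 genes that rose lie between 0.08 and 0.24, ABCA5 lies at -0.16, and the other 19 shown did not pass the test.

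Subfamily A, the lipid transporters, had 5 tested members of 12, with 1 lower and 0 higher. ABCA5, a lysosomal and late endosomal member linked to cholesterol handling (ENSG00000154265, GRCh38 chromosome 17, 69244311 to 69327244), was measured at 5.47, 5.48 and 5.44 RPKM in shPDGFC, against 6.25, 6.35 and 6.11 RPKM in shNC. Every shPDGFC library was below every shNC library, and the 3 shPDGFC values lay closer together (5.46 ± 0.022 RPKM) than the shNC values (6.24 ± 0.12 RPKM, SD, n = 3 each). Its log2 change was -0.16 ± 0.035 (SE; limma, adjusted p = 0.014), with 2632 reads over the shPDGFC libraries and 3349 over the shNC libraries. ABCA5 shares 318 exon bases with ABCA10 on the same strand, which averaged only 0.273 and 0.231 RPKM in shPDGFC and shNC.

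The tested members of subfamily A beside ABCA5 gave adjusted p from 0.21 to 0.85. ABCA3, known in lung as the transporter of surfactant lipids into lamellar bodies, averaged 13.6 ± 0.59 RPKM in shPDGFC and 13.8 ± 0.14 RPKM in shNC (SD, n = 3 each). ABCA2, a lysosomal lipid transporter, averaged 6.01 ± 0.28 and 6.43 ± 0.25 RPKM, and ABCA7, a phospholipid transporter linked to Alzheimer's disease, 2.52 ± 0.23 and 2.47 ± 0.12 RPKM in shPDGFC and shNC. ABCA8 averaged 1.33 ± 0.096 RPKM in shPDGFC and 1.42 ± 0.16 RPKM in shNC, and shares 158 exon bases with ABCA9-AS1 on the opposite strand (4.80 RPKM over the 6 libraries). The groups overlapped for each of these 4 genes.

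ABCA5 closes a run of 5 related genes on chromosome 17, all on the minus strand, in the order ABCA8, ABCA9, ABCA6, ABCA10, ABCA5. Gaps between neighbours were 19.1 kb, 17.6 kb and 5.3 kb, and ABCA10 overlaps ABCA5. Their levels in shPDGFC were 1.33, 0.153, 0.0545, 0.273 and 5.46 RPKM in that order, against 1.42, 0.155, 0.0623, 0.231 and 6.24 RPKM in shNC. ABCA5 was thus the most abundant gene of the run, and the only one of the 5 to pass the test, which 2 of them entered.

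Subfamily B holds drug, lipid and peptide transporters of the plasma membrane and lysosome together with a set of mitochondrial members. Of 6 tested of 9, 1 was higher and 0 were lower. ABCB4, a phosphatidylcholine floppase best known in the liver (ENSG00000005471, chromosome 7, 87401697 to 87480435), was measured at 3.01, 2.97 and 2.83 RPKM in shPDGFC, against 2.54, 2.07 and 2.43 RPKM in shNC. The groups did not overlap, and shNC replicate 2 had the lowest value. ABCB4 averaged 2.94 ± 0.096 RPKM in shPDGFC and 2.35 ± 0.25 RPKM in shNC (SD, n = 3 each; log2 change 0.24 ± 0.070 SE, limma, adjusted p = 0.040). The call was lost without shPDGFC replicate 1, 2 or 3 or without shNC replicate 2 or 3 (adjusted p between 0.071 and 0.10).

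ABCB1, which encodes the drug exporter P-glycoprotein, lies 23.2 kb from ABCB4 on the same strand. It was measured at 15.0, 14.3 and 15.0 RPKM in shPDGFC, against 14.2, 14.3 and 13.6 RPKM in shNC. The groups met at shPDGFC replicate 2 and shNC replicate 2, and ABCB1 did not pass (log2 change 0.071 ± 0.033 SE, adjusted p = 0.15). Of the 50-base stretches of the longest ABCB1 transcript 2.5% also occur in ABCB4 transcripts, and 2.8% of those of ABCB4 occur in ABCB1 transcripts. A small share of reads could thus be assigned to either. This weighs more on ABCB4, the less abundant gene (2.64 RPKM over the 6 libraries, against 14.4 RPKM for ABCB1).

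The mitochondrial members ABCB8 and ABCB10 did not pass. ABCB8 averaged 9.16 ± 0.13 RPKM in shPDGFC and 8.78 ± 0.15 RPKM in shNC (SD, n = 3 each; adjusted p = 0.22). For ABCB8 every shPDGFC library was above every shNC library. ABCB10, a mitochondrial member known from heme formation in red cell precursors, averaged 18.8 ± 0.59 RPKM in shPDGFC and 19.5 ± 0.15 RPKM in shNC (adjusted p = 0.29). The lysosomal peptide transporter ABCB9 averaged 3.96 and 4.01 RPKM in shPDGFC and shNC (adjusted p = 0.86), and shares 1656 exon bases with OGFOD2 on the opposite strand (1.47 RPKM). Also on the opposite strand, it shares 1590 exon bases with ARL6IP4 (0.313 RPKM) and 2752 with AC026362.1 (0.0 RPKM). The level of ABCB9 is therefore uncertain.

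Subfamily C, the multidrug resistance proteins, sulfonylurea receptors and their relatives, had 7 tested members of 11, with 1 higher and 0 lower. ABCC5, an exporter of cyclic nucleotides and folate analogues (ENSG00000114770, chromosome 3, 183919934 to 184018015), had the smallest p of the family. It was measured at 17.3, 16.8 and 17.6 RPKM in shPDGFC, against 14.9, 15.0 and 15.0 RPKM in shNC. Every shPDGFC library was above every shNC library, by more than the spread within either group. The means were 17.3 ± 0.40 RPKM in shPDGFC and 15.0 ± 0.028 RPKM in shNC (SD, n = 3 each), a ratio of 1.15 (log2 change 0.19 ± 0.027 SE; limma, adjusted p = 0.0029).

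The other drug exporters of subfamily C did not pass. ABCC1, the first multidrug resistance protein, was measured at 14.1, 14.0 and 14.0 RPKM in shPDGFC, against 13.6, 12.6 and 13.3 RPKM in shNC (log2 change 0.086 ± 0.034 SE, adjusted p = 0.096), with no overlap between the groups. ABCC4, an exporter of cyclic nucleotides and prostaglandins that is abundant in prostate, was measured at 6.83, 6.29 and 6.18 RPKM in shPDGFC, against 7.03, 6.81 and 7.26 RPKM in shNC (log2 change -0.11 ± 0.046 SE, adjusted p = 0.11). Only shPDGFC replicate 1 and shNC replicate 2 overlapped, and the gene passed as lower without shPDGFC replicate 1 (log2 change -0.15, adjusted p just under the threshold) and with limma-voom on recovered reads (adjusted p = 0.024). ABCC10 averaged 5.31 ± 0.12 RPKM in shPDGFC and 5.16 ± 0.17 RPKM in shNC (SD, n = 3 each; adjusted p = 0.57). ABCC2, the exporter of conjugated bilirubin in liver, lay below the tested level (0.501 ± 0.046 and 0.377 ± 0.034 RPKM in shPDGFC and shNC).

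ABCC6, whose loss causes soft tissue calcification, averaged 1.96 ± 0.16 RPKM in shPDGFC and 2.26 ± 0.14 RPKM in shNC (SD, n = 3 each). Every shPDGFC library was below every shNC library, but the test was not passed (adjusted p = 0.17). Its level is uncertain because 14.1% of the 50-base stretches of its longest transcript also occur in the pseudogene ABCC6P1, which averaged 5.37 RPKM over the 6 libraries. The sulfonylurea receptors ABCC8 and ABCC9, subunits of ATP-sensitive potassium channels, averaged 1.58 and 1.08 RPKM in shPDGFC and 1.70 and 1.15 RPKM in shNC (adjusted p = 0.63 and 0.68). Of their pore partners, KCNJ8 fell to 12.5 ± 0.37 RPKM in shPDGFC, against 14.3 ± 0.35 RPKM in shNC (SD, n = 3 each; adjusted p = 0.0076), and KCNJ11 was measured at 1.28 and 1.53 RPKM (adjusted p = 0.27).

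All 4 members of subfamily D were tested, and 2 were higher. ABCD3, a peroxisomal importer of branched-chain and bile acid precursor acyl groups (ENSG00000117528, chromosome 1, 94418455 to 94518666), was measured at 36.4, 32.8 and 34.9 RPKM in shPDGFC, against 31.0, 31.1 and 32.6 RPKM in shNC. The groups did not overlap, though shPDGFC replicate 2 lay close above shNC replicate 3. Its adjusted p of 0.04998 (limma; log2 change 0.13 ± 0.041 SE) was just under the threshold. The call was lost without shPDGFC replicate 1 or 3 or without any shNC library (adjusted p between 0.058 and 0.13), and with either smaller pseudocount.

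ABCD4, a lysosomal member needed for the release of vitamin B12 (ENSG00000119688, chromosome 14, 74285423 to 74303056), was measured at 19.9, 20.6 and 20.1 RPKM in shPDGFC, against 18.8, 17.3 and 17.4 RPKM in shNC. All shPDGFC libraries lay above all shNC libraries, with means of 20.2 ± 0.36 and 17.9 ± 0.86 RPKM (SD, n = 3 each) in shPDGFC and shNC. The log2 change was 0.17 ± 0.037 (SE; limma, adjusted p = 0.015), and the call was lost only without shNC replicate 3 (adjusted p = 0.053). ABCD4 shares 624 exon bases with AC005519.1, a gene annotated on the same strand that averaged 2.15 RPKM.

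ABCD2, a peroxisomal importer of fatty acyl groups, averaged 1.60 ± 0.12 RPKM in shPDGFC and 1.79 ± 0.035 RPKM in shNC (SD, n = 3 each; adjusted p = 0.29), with every shPDGFC library below every shNC library.

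Among the members without a membrane domain, 2 of 4 tested were higher. ABCF1, which promotes translation initiation (ENSG00000204574, chromosome 6, 30571376 to 30597179), was measured at 55.1, 52.8 and 54.4 RPKM in shPDGFC, against 51.2, 51.2 and 51.0 RPKM in shNC (log2 change 0.08 ± 0.024 SE; limma, adjusted p = 0.040). ABCF3, a relative that also lacks membrane domains (ENSG00000161204, chromosome 3, 184186023 to 184194012) was measured at 16.02, 14.55 and 14.89 RPKM in shPDGFC, against 13.9, 13.9 and 13.4 RPKM in shNC (log2 change 0.13 ± 0.040 SE; limma, adjusted p = 0.041). For both genes the groups did not overlap. Both calls were lost without shPDGFC replicate 1 or 3 or without any shNC library, with adjusted p between 0.087 and 0.11 for ABCF1 and between 0.074 and 0.12 for ABCF3, and with upper-quartile scaling (0.066 and 0.057).

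ABCE1, which splits ribosomes after termination, was measured at 133.7, 125.1 and 128.4 RPKM in shPDGFC, against 122.4, 123.3 and 125.0 RPKM in shNC. The lowest shPDGFC library exceeded the highest shNC library by less than the spread within shPDGFC, and the test was not passed (log2 change 0.062 ± 0.029 SE, adjusted p = 0.15). ABCE1 shares 469 exon bases with ANAPC10 (8.28 RPKM) and 276 with OTUD4 (21.8 RPKM), both on the opposite strand. ABCF2 averaged 7.54 ± 0.34 RPKM in shPDGFC and 7.25 ± 0.23 RPKM in shNC (SD, n = 3 each; adjusted p = 0.42). It shares 53.4% of its 50-base stretches with the readthrough gene ABCF2-H2BK1 on the same strand, listed at 0. Reads from these stretches could be assigned to either gene or to none, so the level of ABCF2 is uncertain. ABCF3 lies 168.0 kb from ABCC5 on chromosome 3, on the opposite strand, and EIF2B5, which lies between them, did not pass (25.4 ± 0.90 RPKM in shPDGFC and 24.5 ± 0.57 RPKM in shNC, SD, n = 3 each; adjusted p = 0.29).

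Subfamily G had 3 tested members of 5, with 1 higher and 0 lower. ABCG2, a drug and urate exporter also called breast cancer resistance protein (ENSG00000118777, chromosome 4, 88090264 to 88231322), was measured at 2.67, 2.62 and 2.43 RPKM in shPDGFC, against 1.92, 2.04 and 2.14 RPKM in shNC. Each shPDGFC library lay above each shNC library. The means were 2.57 ± 0.12 RPKM in shPDGFC and 2.04 ± 0.11 RPKM in shNC (SD, n = 3 each), a ratio of 1.26, on 631 reads in shPDGFC and 557 in shNC (log2 change 0.24 ± 0.062 SE; limma, adjusted p = 0.026). The call was lost without shPDGFC replicate 1 or 2 or without shNC replicate 1 or 2 (adjusted p between 0.062 and 0.082). The sterol transporters ABCG1 and ABCG4 averaged 1.27 and 2.74 RPKM in shPDGFC and 1.38 and 2.996 RPKM in shNC (adjusted p = 0.53 and 0.19). For ABCG4 every shPDGFC library was below every shNC library.

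**Figure D3:**
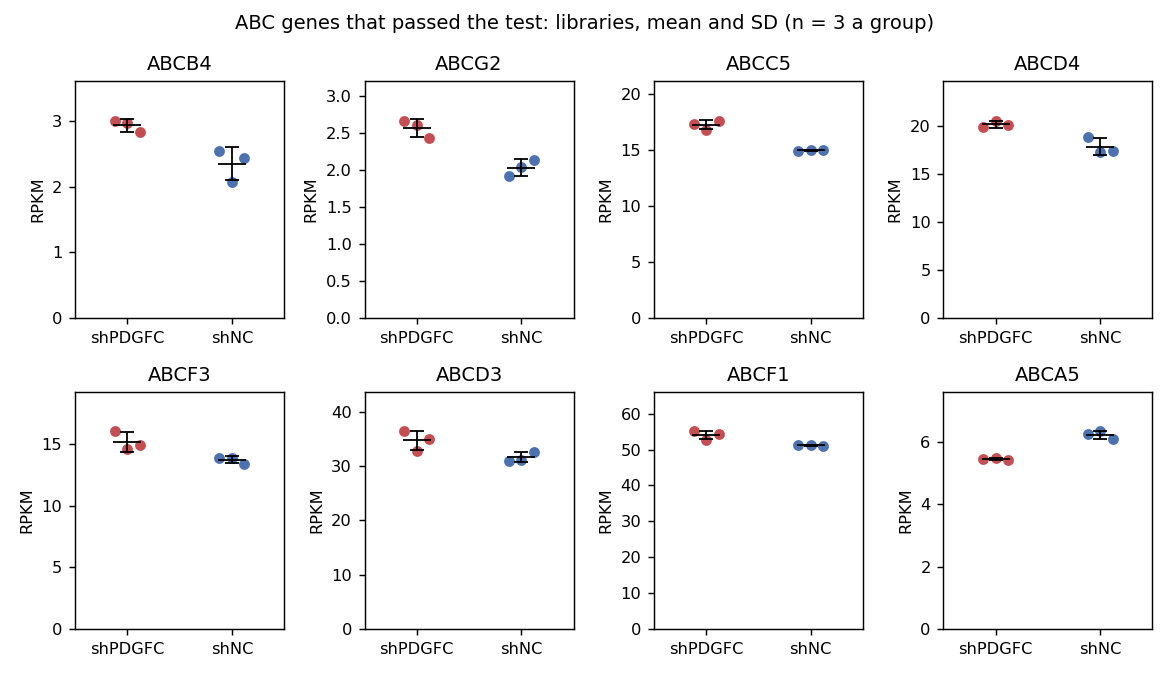
RPKM of the 8 ABC genes that passed the test, 1 panel a gene with axes from 0, with libraries as points and the mean and SD as bars (n = 3 a group, shPDGFC left). The groups do not overlap in any panel, and the ratio of means lies between 1.06 for ABCF1 and 1.26 for ABCG2 for the genes that rose and at 0.876 for ABCA5.

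Of the 17 members below the tested level, 10 reached 0.1 RPKM in a library. ABCA1, the plasma membrane exporter of cholesterol to apolipoproteins, was measured at 0.448, 0.427 and 0.396 RPKM in shPDGFC, against 0.462, 0.410 and 0.431 RPKM in shNC, on 257 and 296 reads. ABCA4, the retinal transporter of retinoid lipids, was measured at 0.0943, 0.0914 and 0.0814 RPKM in shPDGFC, against 0.165, 0.217 and 0.202 RPKM in shNC. ABCA12, the lipid transporter of the skin barrier, was measured at 0.192, 0.165 and 0.171 RPKM in shPDGFC, against 0.306, 0.277 and 0.258 RPKM in shNC. For ABCA4 and ABCA12 all shPDGFC libraries lay below all shNC libraries, and for ABCC2 all lay above. Among all tested genes 46.8% showed no overlap in either direction, and that share was not computed for genes below the tested level.

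These low genes rest on few reads: 38 in shPDGFC and 92 in shNC for ABCA4, 95 and 170 for ABCA12, and 169 and 142 for ABCC2. With the filter lowered to 0.1 RPKM they did not pass on the log2(RPKM + 1) scale (adjusted p = 0.14, 0.18 and 0.23). With limma-voom on the recovered reads of genes with at least 10 reads in at least 3 libraries, a test added after the data were seen, ABCA4 (log2 change -1.08 ± 0.26 SE, adjusted p = 0.0026) and ABCA12 (-0.67 ± 0.18, adjusted p = 0.0064) passed as lower and ABCC2 did not pass (0.41 ± 0.17, adjusted p = 0.062). That test called 14.7% of genes higher and 17.7% lower.

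ABCA13 was measured at 0.0301 and 0.0523 RPKM in shPDGFC and shNC, on 31 and 58 reads, and did not pass with limma-voom (adjusted p = 0.062). ABCB5, ABCB6, ABCC11, ABCA6, ABCA9 and ABCA10 overlapped between the groups, with means from 0.0545 to 0.307 RPKM in shPDGFC and from 0.0623 to 0.316 RPKM in shNC. The levels of ABCB6, ABCC11 and ABCA10 are uncertain. ABCB6 shares 2864 exon bases with AC068946.2, a protein-coding gene on the same strand (0.007 RPKM over the 6 libraries). Of the 50-base stretches of ABCB6, 90.8% also occur in that gene, so most reads of ABCB6 could be assigned to either. ABCC11 shares 293 exon bases with LONP2 on the opposite strand (14.2 RPKM over the 6 libraries). Of the 50-base stretches of ABCA10, 4.3% also occur in ABCA5 (5.85 RPKM) and 1.6% in ZNF721 (24.1 RPKM). All shPDGFC libraries lay below all shNC libraries for ABCA13. ABCB11, the bile salt export pump, averaged 0.0392 and 0.0324 RPKM in shPDGFC and shNC. ABCC3 had 2 reads in shPDGFC and 4 in shNC, and ABCC12 9 and 16. The intestinal sterol exporters ABCG5 and ABCG8 had 1 and 7 reads in shPDGFC and 0 and 5 in shNC, where 3 reads in the shallowest library correspond to 0.063 RPKM for ABCG5, so no difference was detectable at this depth. Such limits cover counting error only.

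**Figure D4:**
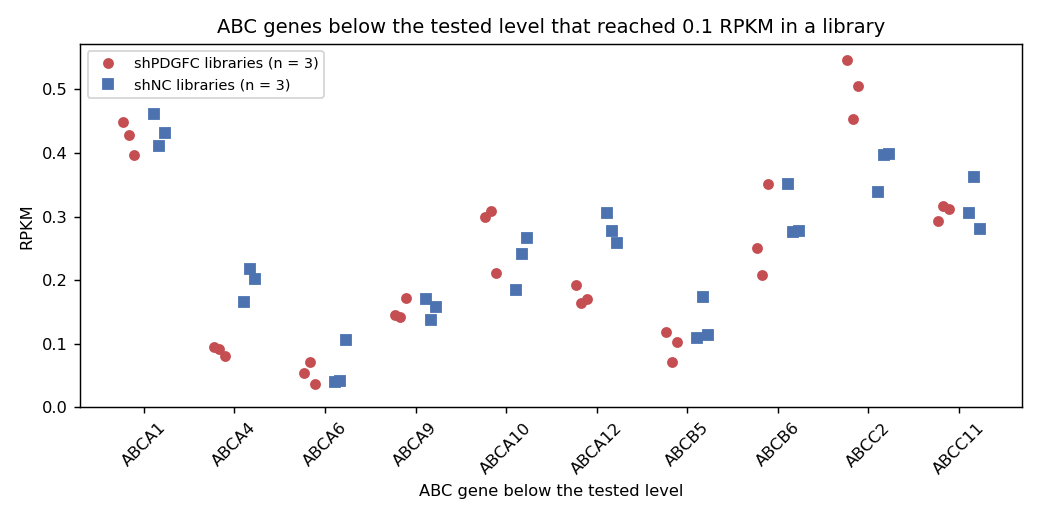
RPKM per library of the 10 ABC genes below the tested level that reached 0.1 RPKM in some library, shPDGFC libraries as circles on the left and shNC libraries as squares on the right of each gene. ABCA4 and ABCA12 lie lower and ABCC2 higher in shPDGFC with no overlap, and the other 7 genes overlap.

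TAP1 and TAP2, the ABC proteins that carry peptides into the endoplasmic reticulum for MHC class I, did not pass. TAP1 averaged 15.5 ± 0.20 RPKM in shPDGFC and 15.0 ± 0.16 RPKM in shNC, and TAP2 9.11 ± 0.71 and 8.83 ± 0.17 RPKM (SD, n = 3 each; adjusted p = 0.23 and 0.62). CFTR, a chloride channel, was below the tested level at 0.107 and 0.0896 RPKM in shPDGFC and shNC. Of the 11 tested partners in the peptide loading complex list 5 rose and 0 fell, with a median log2 change of 0.082. Over all tested genes 14.2% were higher and 15.6% were lower. The 2 with the smallest p were ERAP1, a peptide-trimming enzyme (10.3 ± 0.21 RPKM in shPDGFC, 8.58 ± 0.27 RPKM in shNC, adjusted p = 0.0032), and tapasin, TAPBP (8.46 ± 0.63 and 6.46 ± 0.15 RPKM, adjusted p = 0.0041; SD, n = 3).

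Lists of genes that work with the transporters were set beside them, each read against the 14.2% of tested genes that were higher and the 15.6% that were lower. Over all 8 lists 28 of 115 tested genes rose and 15 fell. In the list of sterol export genes and LXR partners 4 of 14 tested rose and 0 fell, with a median log2 change of 0.038. NPC1, which moves cholesterol out of lysosomes, rose to 27.4 ± 0.92 RPKM in shPDGFC, against 21.9 ± 0.48 RPKM in shNC (adjusted p = 0.0011), and MYLIP, an LXR-induced ubiquitin ligase of the LDL receptor, to 7.56 ± 0.53 RPKM, against 6.12 ± 0.24 RPKM in shNC (SD, n = 3 each; adjusted p = 0.010). The other two that rose were the LXR receptor NR1H2, at 7.34 ± 0.26 RPKM in shPDGFC and 5.45 ± 0.78 RPKM in shNC (adjusted p = 0.014), and SMPDL3A, an LXR-induced phosphodiesterase, at 6.23 ± 0.47 and 5.13 ± 0.19 RPKM (SD, n = 3 each; adjusted p = 0.019). The other 10 tested genes of the list did not pass. Among them, PLTP averaged 1.24 ± 0.15 RPKM in shPDGFC and 1.58 ± 0.19 RPKM in shNC, and LPCAT3 20.1 ± 1.4 and 22.3 ± 1.5 RPKM (limma, adjusted p = 0.13 and 0.12). APOE averaged 20.6 and 21.0 RPKM and SREBF1 2.20 and 2.06 RPKM in shPDGFC and shNC (adjusted p = 0.57 and 0.46). Of the 14 tested, 10 had a positive and 4 a negative log2 change. Of the LXR target transporters, ABCA1 lay below the tested level and ABCG1 did not pass.

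In the list of xenobiotic regulators and NRF2-linked genes 8 of 14 tested rose and 1 fell, with a median log2 change of 0.115. HMOX1, heme oxygenase 1, rose to 57.7 ± 1.7 RPKM in shPDGFC, against 40.6 ± 0.41 RPKM in shNC (adjusted p = 0.00021), and GSR, glutathione reductase, to 44.8 ± 0.57 RPKM, against 39.2 ± 1.1 RPKM in shNC (SD, n = 3 each; adjusted p = 0.0031). The xenobiotic receptor AHR and the factor NFE2L2 (NRF2) also rose, to 4.14 ± 0.092 and 31.6 ± 1.0 RPKM in shPDGFC, against 3.34 ± 0.088 and 29.2 ± 0.41 RPKM in shNC (adjusted p = 0.0071 and 0.030). SLCO2A1, a prostaglandin uptake carrier, fell to 2.24 ± 0.17 RPKM in shPDGFC, against 3.43 ± 0.33 RPKM in shNC (adjusted p = 0.0048). The other 5 tested genes of the list did not pass. Among them, NQO1 averaged 5.66 ± 0.38 RPKM in shPDGFC and 5.87 ± 0.76 RPKM in shNC, and KEAP1 21.0 ± 0.12 and 21.0 ± 0.48 RPKM (limma, adjusted p = 0.75 and 0.98). Of the 14 tested, 11 had a positive and 3 a negative log2 change. The drug-sensing receptor NR1I2 (PXR) averaged 0.0118 and 0.00518 RPKM in shPDGFC and shNC.

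Peroxisome genes, the surroundings of subfamily D, went both ways, with 4 of 23 tested higher and 3 lower and a median log2 change of 0.046. PEX19, the chaperone that brings ABCD proteins to the peroxisome, rose to 20.3 ± 1.2 RPKM in shPDGFC, against 17.3 ± 1.2 RPKM in shNC (adjusted p = 0.026). SLC27A2, a very-long-chain acyl-CoA synthetase, fell to 8.10 ± 0.36 RPKM, against 9.86 ± 0.37 RPKM in shNC (adjusted p = 0.0054), and PEX13, part of the import machinery, to 14.1 ± 0.30 RPKM, against 15.5 ± 0.37 RPKM in shNC (SD, n = 3 each; adjusted p = 0.021).

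In the list of iron-sulfur and heme genes, which surround the mitochondrial members of subfamily B, 3 of 30 tested rose and 5 fell, with a median log2 change of -0.006. ALAS1, the first enzyme of heme synthesis, rose to 42.0 ± 0.78 RPKM in shPDGFC, against 34.8 ± 0.76 RPKM in shNC (adjusted p = 0.00097), and CPOX, a later enzyme, to 22.7 ± 0.99 RPKM, against 20.9 ± 0.21 RPKM in shNC (adjusted p = 0.041). ALAD, the second enzyme, fell to 14.5 ± 0.36 RPKM, against 17.9 ± 0.34 RPKM in shNC (adjusted p = 0.0011), and SLC25A39, a mitochondrial glutathione carrier, to 53.8 ± 2.1 RPKM, against 68.8 ± 2.6 RPKM in shNC (SD, n = 3 each; adjusted p = 0.0012).

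Ribosome recycling and quality control partners of ABCE1 and the ABCF proteins also went both ways, with 4 of 19 tested higher and 5 lower and a median log2 change of 0.032. EIF3J, which acts beside ABCE1 in ribosome recycling, rose to 56.8 ± 0.88 RPKM in shPDGFC, against 50.8 ± 0.72 RPKM in shNC (adjusted p = 0.0031), and the termination factor ETF1 to 126 ± 1.6 RPKM, against 115 ± 1.8 RPKM in shNC (adjusted p = 0.0057). EIF1AX, an initiation factor, fell to 43.4 ± 0.96 RPKM, against 60.7 ± 1.4 RPKM in shNC (adjusted p = 0.00021), and EIF2D to 37.7 ± 0.84 RPKM, against 46.4 ± 1.6 RPKM in shNC (SD, n = 3 each; adjusted p = 0.0012).

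The calls differed in how far they depended on single libraries and settings. ABCC5 and ABCA5 passed under each of the 16 alternatives tried, with adjusted p up to 0.018 and 0.046. ABCD4 lost its call under 1 alternative, ABCG2 under 6, ABCB4 under 8, ABCF1 and ABCF3 under 9 each and ABCD3 under 11.

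The share of all genes that passed moved with these settings too. With a pseudocount of 0.1 or 0.5 RPKM 6 members rose and 1 fell, where 14.1% of all genes were higher, 15.6% lower and 29.7% either. With the filter at 0.1 RPKM 3 rose and 1 fell (7.98%, 9.18% and 17.2% of all genes), and with no filter 2 rose and 1 fell (4.11%, 4.52% and 8.64%). With a filter on mean RPKM 7 rose and 1 fell (14.3%, 15.8% and 30.1%). Upper-quartile scaling gave 4 and 1 (12.4%, 17.6% and 30.0%), median-of-ratios scaling 8 and 1 (15.7%, 14.4% and 30.1%), and a replicate block 2 and 1 (10.6%, 12.0% and 22.6%). With limma-voom on the same genes 9 rose and 3 fell (17.6%, 20.0% and 37.6%), and at 10 reads 8 rose and 4 fell (14.7%, 17.7% and 32.5%). The filter at 0.1 RPKM, the fit with no filter and the fit at 10 reads also tested members below 1 RPKM. Their counts are therefore out of more than 29 members.

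Without shPDGFC replicate 1 the members that rose and fell were 2 and 2, where 11.4% of all genes were higher, 13.1% lower and 24.4% either. Without shPDGFC replicate 2 they were 6 and 1 (12.1%, 13.1% and 25.2%), and without shPDGFC replicate 3 they were 3 and 1 (10.0%, 11.9% and 21.9%). Without shNC replicate 1 they were 3 and 1 (10.4%, 10.8% and 21.2%), without shNC replicate 2 they were 2 and 1 (10.9%, 12.3% and 23.2%), and without shNC replicate 3 they were 2 and 1 (9.88%, 10.9% and 20.8%).

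**Figure D5:**
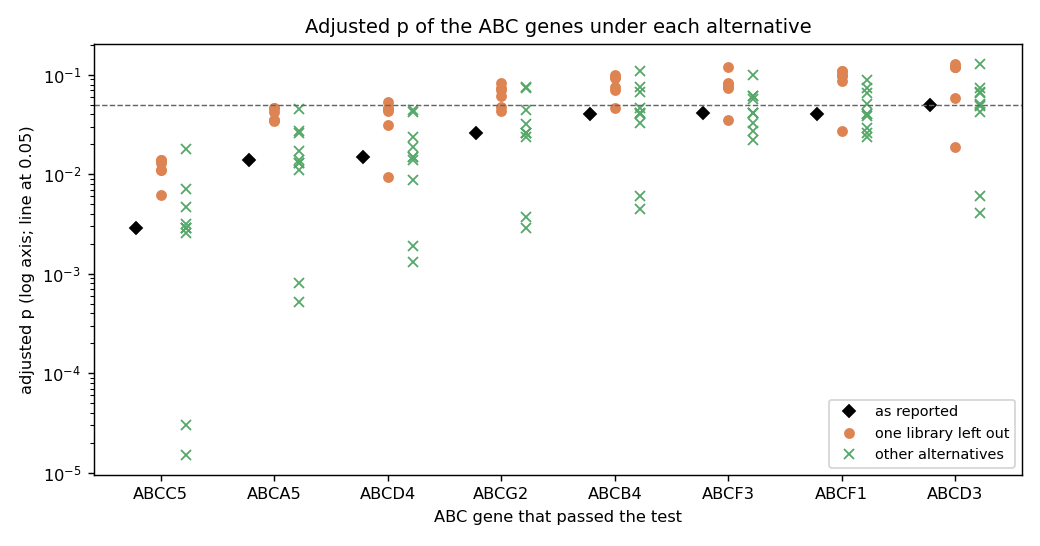
Adjusted p (log axis, dashed line at 0.05) of the 8 ABC genes that passed the test, as reported (diamonds), with 1 library left out (circles) and under the other alternatives (crosses). ABCC5 and ABCA5 stay under the line throughout, and the other 6 genes cross it under at least 1 alternative.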

How the data were processed

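RNA was extracted with Trizol and made into single-end libraries with an Ion Total RNA-Seq kit, per the labels' protocols. The authors deposited 1 table of RPKM values, 60664 Ensembl genes by 6 libraries. Its header gives no unit and the labels call it raw counts, but its values are not whole; within a gene they stand in whole-number ratios after 1 factor per library (37040 of 37040 genes with any value, relative tolerance 1e-09), which is the structure of RPKM. Whole reads and library totals were recovered from these steps; for 1285 low genes the divisor was set from the longest GENCODE transcript, so their reads are approximate. Aligner, annotation and strand setting: not given in the sources used here. Reads of genes overlapping on opposite strands therefore cannot be told apart. The submitters' processing notes name GRCm38 and mm10 although the identifiers are human. Symbols were found for 60652 identifiers, and gene types and coordinates are those of GENCODE version 29 (GRCh38).

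The test kept genes that reached 1 RPKM in 3 or more libraries (15337) and used limma 3.58.1 (R 4.3.3) with its trend option on log2(RPKM + 1), shPDGFC minus shNC, with no block and Benjamini-Hochberg adjustment. Libraries of 1 group differed by more than sampling noise (chi-square per degree of freedom at least 1.458, genes with 10 or more reads in a pair). The members and lists were chosen with earlier results of these data known. Tested members were named, except that some genes of the family and lists are not reported here; low members were named if they reached 0.1 RPKM or are well-known drug exporters, and the other low ones after their values were seen. Of each list, up to 2 higher and 2 lower genes with the smallest p were named, and any others after their values were seen. Alternatives covered pseudocount, filter, scaling, replicate block, limma-voom and leaving out each library. Shared sequence was counted as 50-base stretches of a member's longest transcript found in transcripts of other genes.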

Additional observations from a re-analysis of the deposited data

How the results depend on the processing

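The count of ABC genes that rose (7) was 3 with the filter at 0.1 RPKM, 2 with no filter, 4 with upper-quartile scaling and between 2 and 6 with 1 library left out. It lay between 6 and 9 under the other alternatives without a block, both limma-voom fits included. The count that fell (1) was 3 with limma-voom on recovered reads, 4 with limma-voom at 10 reads (added after the data were seen) and 1 or 2 with 1 library left out. The partner genes that rose (28) were 16 with no filter and between 16 and 25 with 1 library left out. PDGFC kept its direction and its call under all 16 alternatives, and no ABC gene that passed changed direction.

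Of the genes that did not pass, ABCC1, ABCC4 and ABCC6 were among those that passed under some alternative. With 1 library left out the log2 change turned sign for ABCA3 (-0.05 to 0.008, turned without shPDGFC replicate 2), ABCA7 (-0.028 to 0.067, without shPDGFC replicate 2 or shNC replicate 2), ABCB9 (-0.051 to 0.016, without shPDGFC replicate 1 or shNC replicate 1) and ABCC8 (-0.13 to 0.012, without shNC replicate 1). The causes were not tested.

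Samples of the same number showed no shared deviation: the correlations of their deviations were -0.101, -0.111 and -0.018, and no sample correlated best with its own number. With 3 libraries a group, these values cannot tell whether samples of the same number were prepared together. With the replicate block, 2 ABC genes rose, 1 fell, and 21 partner genes rose and 14 fell.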

Other observations

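The symbol rule also matched 18 genes that are not protein-coding in GENCODE version 29, pseudogenes and antisense genes of the family. Of these 5 were tested with limma, 0 rose, 0 fell and 6 were listed at 0 RPKM in all libraries. ABCA11P averaged 1.02 ± 0.041 RPKM in shPDGFC and 1.34 ± 0.11 RPKM in shNC (SD, n = 3 each), with every shPDGFC library below every shNC library (log2 change -0.21 ± 0.078 SE, limma, adjusted p = 0.080). ABCA9-AS1, antisense to ABCA8 and ABCA9, averaged 4.40 ± 0.23 RPKM in shPDGFC and 5.19 ± 0.64 RPKM in shNC (adjusted p = 0.11). The pseudogenes ABCC6P1 and ABCC6P2 averaged 5.17 and 3.97 RPKM in shPDGFC and 5.58 and 4.29 RPKM in shNC, above the level of ABCC6 itself in both groups (adjusted p = 0.39 and 0.67).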
